A study of Mus musculus with 12 samples.

Results

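Glycolysis and glycogen metabolism was examined in the hearts of mice that express expanded CUG repeat RNA, the RNA that causes myotonic dystrophy type 1. The gene set holds 36 genes of the 51826 entries in the count table. Its members were chosen by gene symbol for their place in the pathway, and they cover glucose uptake and trapping, the steps from glucose 6-phosphate to pyruvate, the PFKFB enzymes that regulate phosphofructokinase, the fates of pyruvate and lactate, and the synthesis and breakdown of glycogen.

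RNA-Seq counts came from 12 libraries, an atrial and a ventricular one from each of 6 mice. CUG960 +dox mice (V119, V120 and V123) were homozygous for TREDT960I, which carries 960 CUG repeats in human DMPK exons, and hemizygous for MHCrtTA, the transactivator that switches the repeat RNA on when doxycycline is given. MHCrtTA +dox controls (V327, V333 and V334) were hemizygous for the transactivator, lacked the repeat transgene and received the same drug. All 6 mice were FvB females of 10 weeks, and both genotypes were given doxycycline from postnatal day 1, so that the transactivator and the drug are shared by every group. The αMHC promoter restricts the transactivator to cardiomyocytes, so by design the repeat RNA is made in these cells alone. A single transgenic model was profiled. Each value of n = 3 below stands for 3 separate mice. Library totals ran from 116127966 to 160676189 counts, and the 36 members took 1.33% to 1.40% of the counts in atria and 1.62% to 1.79% in ventricles. Members ranged from 26 counts for Aldoc in its lowest library to 332148 counts for Aldoa in its highest, and all 36 passed the filter on low counts in every comparison.

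The chamber labels were checked against defining markers. All 6 atrial cardiomyocyte markers tested (Nppa, Myl7, Sln, Myl4, Bmp10 and Dkk3) were higher in atria than in ventricles in both genotypes, and the ventricular light chain Myl2 was lower in atria, with a log2 difference of −9.04 in controls and −9.99 in CUG960 mice. A few libraries had more of the markers of the other chamber, and whether tissue of that chamber was carried over was not tested. The ventricular library of V123 had 55.9 CPM (counts scaled to the library total) of Myl7 and 18.5 CPM of Sln, against at most 19.3 and 7.84 CPM in the other ventricular libraries. The atrial library of V327 had 33.5 CPM of Myl2, against 8.82 to 11.7 CPM in the other atrial libraries. Transcripts of red blood cells were high in the atrial library of V334, where Hbb-bs reached 1281 CPM against 152 to 256 CPM in the others. The mouse Dmpk count differed between the genotypes by 0.10 (log2, adjusted P = 0.32) in atria and 0.22 (adjusted P = 0.20) in ventricles, but the transgene holds human exons, so this count does not check the genotype labels. The splicing factor gene Mbnl1 changed by −0.029 in atria and 0.086 in ventricles, and the ribosomal protein gene Rpl4 by 0.020 and 0.052, and neither passed the test.

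Glycolysis splits glucose into pyruvate, and phosphofructokinase sets its pace, driven by fructose 2,6-bisphosphate that the bifunctional PFKFB enzymes make and remove. Many steps have isozymes from separate genes: muscle forms such as Pfkm, Eno3 and Pgam2 dominate in striated muscle, while Pfkp, Eno1 and Pgam1 are widely expressed forms. The adult heart burns mostly fatty acids, takes up glucose through the insulin-responsive transporter GLUT4, and keeps a glycogen store that phosphorylase breaks down when phosphorylase kinase switches it on.

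Differences were tested with edgeR for CUG960 against control within each tissue, for atria against ventricles within each genotype, and for the difference between the ventricular and the atrial genotype effect. Genes whose Benjamini-Hochberg adjusted P lay under 0.05 and that moved 1.5-fold or more were called differentially expressed. Below, rose and fell are also used of smaller changes that passed the adjusted P value, and the fold change is then given. Levels are in CPM after TMM scaling over the 12 libraries, and fold changes are log2 values with their standard errors. Where a change is said not to pass without a mouse, that mouse alone was left out of the fit. In bulk tissue, fewer cells of a type and less RNA per cell cannot be told apart.

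In atria, 2 of the 36 members were called, Pfkfb1 and Pfkp, both higher in CUG960 mice. Over all 17650 genes tested in atria, 5.49% were called, 3.37% higher and 2.12% lower. By adjusted P value alone, 8 members passed (3 higher, 5 lower), against 14.6% of all genes. The groups did not overlap for 16 members, against 35.7% of all genes. The median log2 fold change of the members was 0.0039, beside −0.0088 for all genes.

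In ventricles, 2 members were called, Pfkfb1 and Phkg1, both lower in CUG960 mice. Of 16909 genes tested there, 4.75% were called, 3% higher and 1.76% lower. By adjusted P value alone, 9 members passed (2 higher, 7 lower), against 9.94% of all genes, and the groups did not overlap for 16 members, against 31.2% of all genes. The median of the members was −0.066, beside −0.0094 for all genes. With 2 of 36 members called, the share was near that of all genes in each tissue. The genotype effect differed between the tissues for 3 members, Pfkfb1, Eno1 and Slc2a1, against 1.38% of the 18327 genes tested for this. 7 members passed the adjusted P value in both tissues (Gys1, Pfkfb1, Pfkp, Pgam1, Phkg1, Slc2a1 and Slc2a4), and 26 passed in neither. No share of all genes is given beside these counts, so they only list which members passed.

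**Figure D1:**
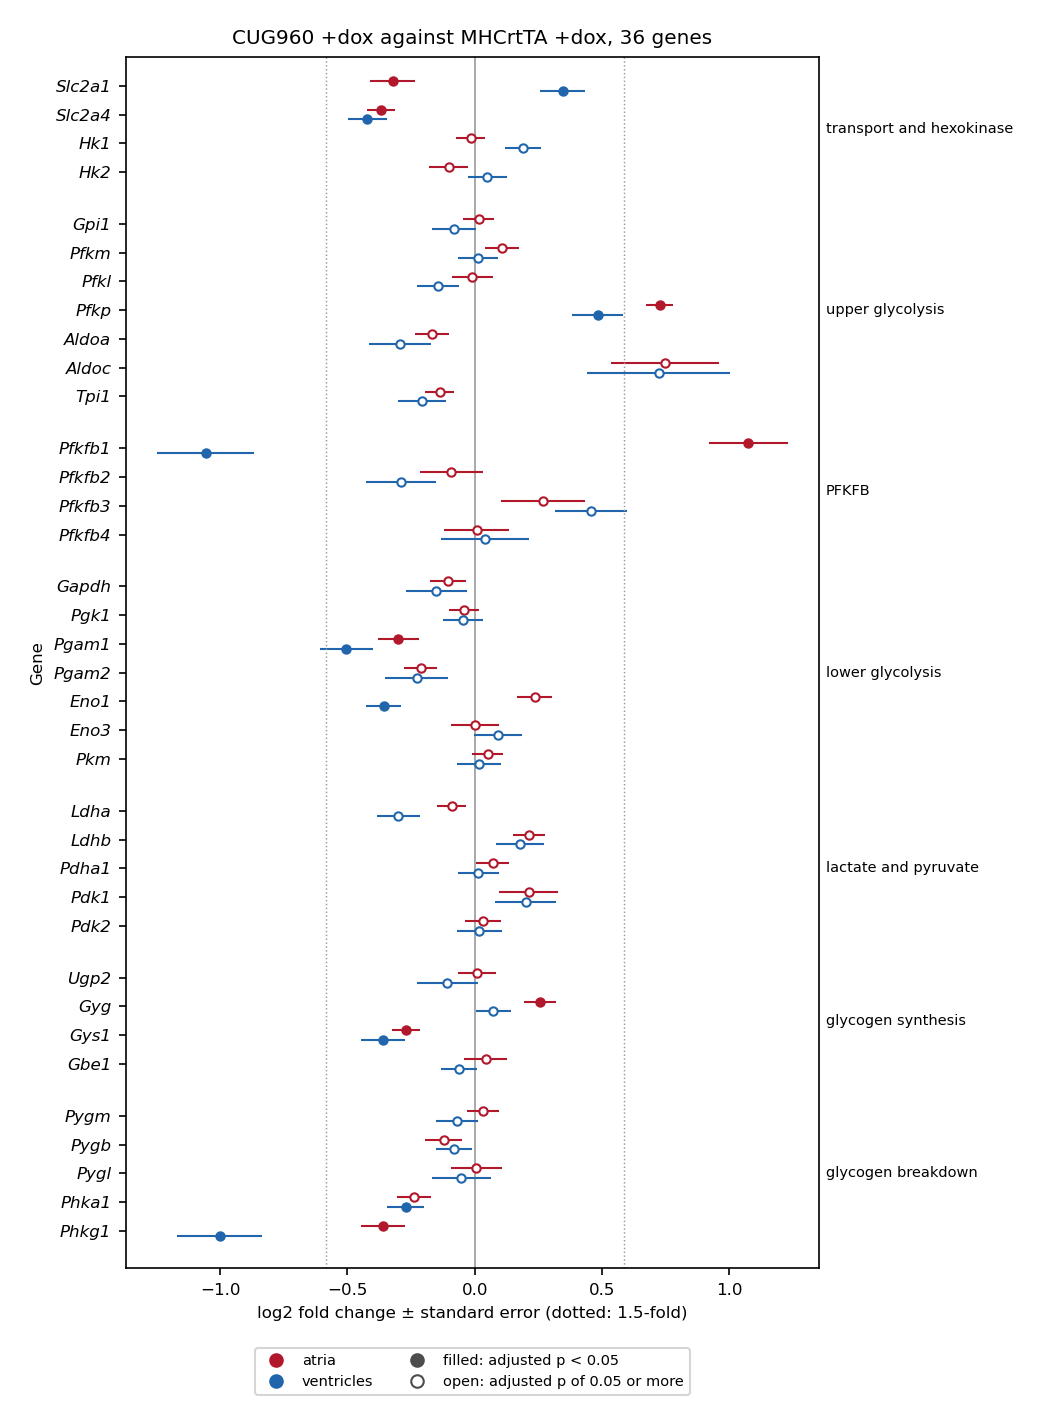
Log2 fold change of each of the 36 members, CUG960 against control, with standard errors, in atria (red) and ventricles (blue). Filled points passed an adjusted P value of 0.05 and dotted lines mark a 1.5-fold change. Most members sit between the dotted lines, and Pfkfb1 lies beyond them on opposite sides in the 2 tissues.

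Pfkfb1 encodes a bifunctional enzyme, best known in liver and skeletal muscle, that makes and degrades fructose 2,6-bisphosphate. It lies on the X chromosome (GRCm38, X:150588229 to 150643878, plus strand). In atria its level was 0.818, 0.747 and 0.689 CPM in the control mice V327, V333 and V334, and 1.501, 1.65 and 1.60 CPM in the CUG960 mice V119, V120 and V123. Ventricles had 4.82, 5.92 and 4.45 CPM in controls and 2.22, 3.10 and 1.97 CPM in CUG960 mice. Every CUG960 atrium was thus above every control atrium, and every CUG960 ventricle below every control ventricle. The log2 fold change was 1.07 ± 0.15 in atria (adjusted P = 0.0039) and −1.06 ± 0.19 in ventricles (adjusted P = 0.0097). The ventricular minus the atrial effect was −2.13 ± 0.25 (adjusted P = 0.0018), and with any 1 mouse left out it stayed between −2.32 and −1.99. Control atria held less Pfkfb1 than control ventricles, a log2 difference of −2.76 ± 0.16 (adjusted P = 3.3e-06), and so did CUG960 atria against CUG960 ventricles, at −0.63 ± 0.19 (adjusted P = 0.020), which did not pass without V119 or V120 (adjusted P = 0.075 to 0.12). Among the members, Pfkfb1 had the lowest count but for Aldoc, 3705 counts over the 12 libraries. Its exons overlap those of Apex2 on the other strand, and because the strand setting of the counting was not given in the sources used here, reads shared with Apex2 cannot be told apart. Apex2 had 3892 counts, with log2 fold changes of −0.066 in atria (adjusted P = 0.79) and 0.22 in ventricles (adjusted P = 0.39).

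RefSeq lists several starts for Pfkfb1. The 250 bases before the start near the annotated 5′ end of the gene and those before a start inside it are shown because the letters they hold differ, with GC boxes (GGGCGG, on either strand) or the TATA box (TATAAA) in capitals. Windows here and below are 5′ to 3′ on the strand of the gene, from RefSeq on GRCm38.p6.
Pfkfb1, chrX:150587993-150588242, plus strand: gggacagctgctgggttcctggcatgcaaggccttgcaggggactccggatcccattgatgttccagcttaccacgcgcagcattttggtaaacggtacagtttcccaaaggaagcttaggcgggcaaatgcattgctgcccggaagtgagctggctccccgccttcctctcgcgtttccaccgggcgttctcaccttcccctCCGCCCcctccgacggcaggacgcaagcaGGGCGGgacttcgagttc
Pfkfb1, chrX:150589666-150589915, plus strand: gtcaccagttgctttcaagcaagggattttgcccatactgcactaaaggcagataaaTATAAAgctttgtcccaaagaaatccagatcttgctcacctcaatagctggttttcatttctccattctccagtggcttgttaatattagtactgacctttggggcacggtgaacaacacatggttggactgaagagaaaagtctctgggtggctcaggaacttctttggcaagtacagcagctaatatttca
The gene counts do not say which start was used in either tissue.

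The other PFKFB genes did not pass the test in either tissue. Pfkfb2, the heart isoform that insulin signalling activates, changed by −0.093 ± 0.12 in atria (adjusted P = 0.66) and −0.29 ± 0.14 in ventricles (adjusted P = 0.22). Pfkfb3, the inducible isoform with high kinase activity, was at 7.70, 8.05 and 8.09 CPM in control ventricles and 10.9, 13.0 and 8.67 CPM in CUG960 ventricles. The groups did not overlap in ventricles, yet the difference of 0.46 ± 0.14 had an adjusted P of 0.074, and of 0.025 without V123. Pfkfb4 changed by 0.007 in atria and 0.041 in ventricles. Per kilobase of transcript, Pfkfb2 made up most of the family in every group. The share of Pfkfb1 in the 4 genes was 2.92% ± 0.0390 (SD, n = 3) in control atria and 5.98% ± 0.176 in CUG960 atria. In ventricles it was 12.2% ± 3.54 in controls and 6.76% ± 1.60 in CUG960 mice, a difference of −5.47 percentage points that was −3.43 without V333. These shares did not overlap between genotypes in either tissue.

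**Figure D2:**
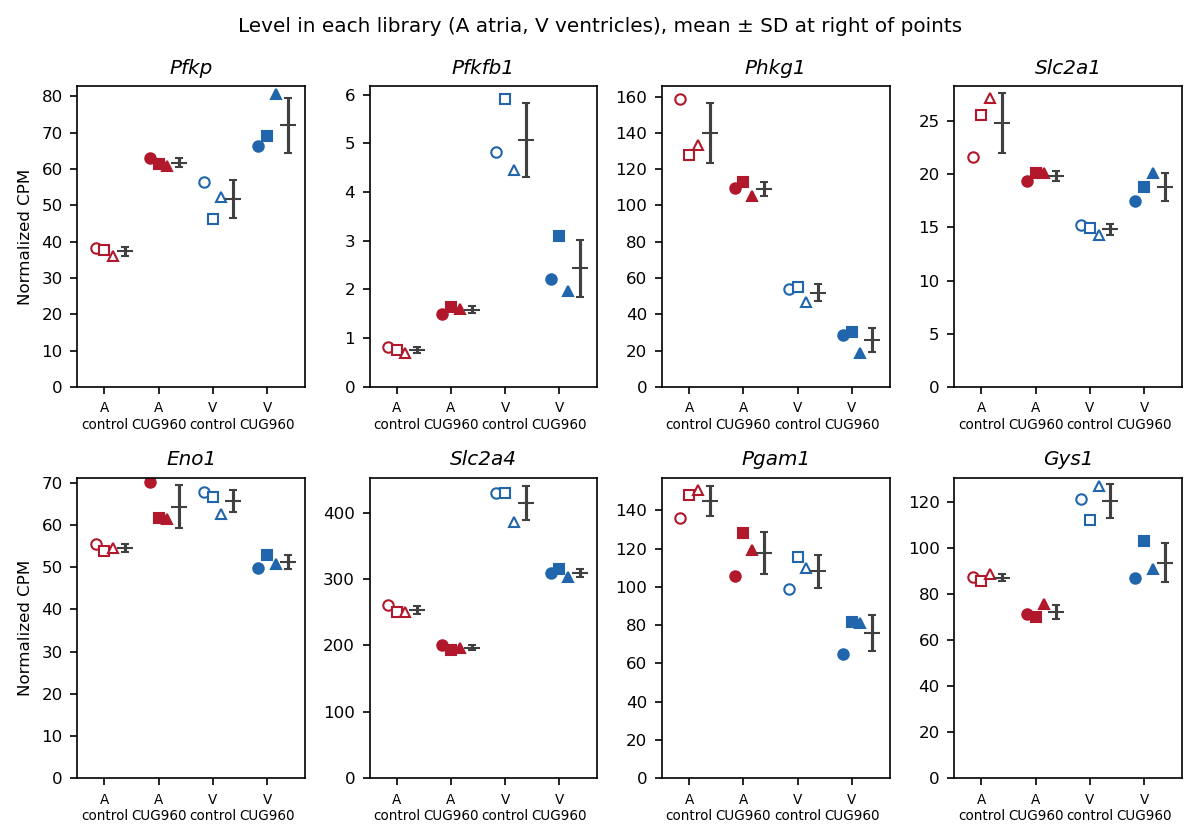
Level in CPM (TMM-scaled) of 8 members in each of the 12 libraries, by tissue, with open symbols for control and filled symbols for CUG960 mice, a shape for each mouse, and the mean ± SD (n = 3) beside them. Pfkfb1 is higher in CUG960 atria and lower in CUG960 ventricles, Slc2a1 and Eno1 also move in opposite directions in the tissues, and Slc2a4, Gys1 and Pgam1 are lower in both.

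Glucose enters cardiomyocytes through GLUT4, encoded by Slc2a4, and GLUT1, encoded by Slc2a1, which carries basal uptake and is the more prominent transporter of the fetal heart. Slc2a4 was at 260.2, 249.97 and 251 CPM in control atria and 200.1, 193 and 196 CPM in CUG960 atria, and at 430.3, 429 and 385 CPM in control ventricles and 309.9, 315 and 302 CPM in CUG960 ventricles. The genotypes did not overlap in either tissue. Slc2a4 fell in atria (log2 fold change −0.37 ± 0.054, adjusted P = 0.0043) and in ventricles (−0.42 ± 0.077, adjusted P = 0.010), short of 1.5-fold in both. The ventricular change did not pass without V327 (adjusted P = 0.057).

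Slc2a1 (chr 4, 119108711 to 119137983, plus strand) was at 21.7, 25.6 and 27.1 CPM in control atria and 19.4, 20.2 and 20.1 CPM in CUG960 atria. In ventricles it was at 15.3, 15.0 and 14.2 CPM in controls and 17.5, 18.8 and 20.1 CPM in CUG960 mice. CUG960 atria were all below control atria and CUG960 ventricles all above control ventricles. The changes were −0.32 ± 0.088 (adjusted P = 0.045) and 0.35 ± 0.090 (adjusted P = 0.042), and their difference was 0.67 ± 0.12 (adjusted P = 0.020). The atrial change did not pass without V119, V120, V123, V333 or V334 (adjusted P = 0.080 to 0.15), the ventricular one without any 1 of the 6 mice (adjusted P = 0.055 to 0.13), nor the difference without V119, V120, V123, V333 or V334 (adjusted P = 0.068 to 0.12). Control atria had more Slc2a1 than control ventricles, by 0.74 (adjusted P = 2.7e-04), whereas in CUG960 mice the chambers differed by 0.065 (adjusted P = 0.52). The window before its start is shown because it held the core of the hypoxia response element (ACGTG), found in 15 of the 35 members with a promoter sequence, beside a pair of GC boxes, all in capitals.
Slc2a1, chr4:119108495-119108744, plus strand: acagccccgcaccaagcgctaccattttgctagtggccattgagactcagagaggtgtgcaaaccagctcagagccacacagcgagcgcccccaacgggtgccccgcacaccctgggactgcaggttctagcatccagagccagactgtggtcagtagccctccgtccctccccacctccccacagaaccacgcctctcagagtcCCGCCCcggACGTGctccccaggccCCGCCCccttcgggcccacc
As a share of 5 facilitative glucose transporters per kilobase (Slc2a1, Slc2a4, Slc2a3, Slc2a8 and Slc2a12), Slc2a1 took 3.22% ± 0.0912 (SD, n = 3) in control ventricles and 5.22% ± 0.423 in CUG960 ventricles, without overlap. In atria its share was 8.16% ± 1.02 in controls and 8.11% ± 0.311 in CUG960 mice, and the groups overlapped.

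Hexokinases trap glucose as glucose 6-phosphate. Hk2, the insulin-responsive form of muscle, changed by −0.10 ± 0.077 in atria and 0.050 ± 0.078 in ventricles, with adjusted P values of 0.41 and 0.74. Hk1 changed by −0.015 in atria and by 0.19 ± 0.072 in ventricles, where its groups did not overlap but the adjusted P was 0.13.

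Among the enzymes from glucose 6-phosphate to the triose phosphates, only Pfkp passed the test in either tissue. Pfkp is the platelet form of phosphofructokinase (chr 13, 6579768 to 6648777, minus strand). In atria it was at 38.3, 37.8 and 35.96 CPM in controls and 63.2, 61.3 and 60.9 CPM in CUG960 mice, and in ventricles at 56.5, 46.1 and 52.2 CPM and 66.3, 69.2 and 80.6 CPM. Every CUG960 library was above every control library of its tissue. The change was 0.73 ± 0.055 in atria (adjusted P = 2.2e-04) and 0.48 ± 0.10 in ventricles (adjusted P = 0.019), the latter under 1.5-fold and not passing without V123 (adjusted P = 0.064), and the difference between the tissues was −0.25 ± 0.12 (adjusted P = 0.44). Its window is shown for its 4 GC boxes, in capitals.
Pfkp, chr13:6648772-6649021, minus strand: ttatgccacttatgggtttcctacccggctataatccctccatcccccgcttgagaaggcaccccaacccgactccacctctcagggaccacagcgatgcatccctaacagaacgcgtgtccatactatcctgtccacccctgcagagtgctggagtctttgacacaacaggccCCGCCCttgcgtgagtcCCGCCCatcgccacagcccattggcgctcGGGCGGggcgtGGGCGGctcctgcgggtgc

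Pfkm, the muscle form, remained the main phosphofructokinase per kilobase, and it changed by 0.11 ± 0.066 in atria (adjusted P = 0.32) and 0.014 ± 0.079 in ventricles (adjusted P = 0.94). Pfkl, the liver form, changed by −0.010 in atria and −0.15 in ventricles (adjusted P = 0.31). The share of Pfkp in the 3 genes was 1.15% ± 0.0663 (SD, n = 3) in control and 1.76% ± 0.0225 in CUG960 atria, and 1.07% ± 0.126 in control and 1.49% ± 0.185 in CUG960 ventricles, so that it stayed a minor form in all 4 groups.

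Aldoc, the brain form of aldolase, was at 1.52, 0.948 and 0.918 CPM in control atria and 1.90, 1.83 and 1.94 CPM in CUG960 atria. The groups were apart, and the change was 0.75 ± 0.21 with an adjusted P of 0.051, which without V327, the highest control, was 0.011. In ventricles its change was 0.72 ± 0.28 (adjusted P = 0.14). Aldoa, the muscle aldolase and one of the most abundant members, changed by −0.17 (adjusted P = 0.14) and −0.30 (adjusted P = 0.16). The isomerases Gpi1 and Tpi1 lay between −0.21 and 0.016 in both tissues, with adjusted P values of at least 0.14.

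In the steps from glyceraldehyde 3-phosphate to pyruvate, Pgam1 fell in both tissues and Eno1 in ventricles, and the other 5 enzymes passed in neither tissue. Pgam1, the widely expressed phosphoglycerate mutase, was at 136, 148 and 151 CPM in control atria and 106, 128 and 119.20 CPM in CUG960 atria. Ventricles had 98.6, 115.70 and 109.7 CPM in controls and 65.2, 81.7 and 81.2 CPM in CUG960 mice. The highest CUG960 library was below the lowest control library in each tissue. It fell in atria (−0.30 ± 0.081, adjusted P = 0.042) and in ventricles (−0.50 ± 0.10, adjusted P = 0.017), and the atrial change did not pass without any 1 of the 6 mice (adjusted P = 0.052 to 0.13). Pgam2, its muscle counterpart, changed by −0.21 ± 0.064 in atria (adjusted P = 0.060) and −0.23 ± 0.12 in ventricles (adjusted P = 0.29).

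Eno1, the widely expressed enolase (chr 4, 150236721 to 150248879, plus strand), was at 55.6, 53.8 and 54.5 CPM in control atria and 70.2, 61.6 and 61.3 CPM in CUG960 atria. Its ventricular level was 67.7, 66.6 and 62.7 CPM in controls and 49.8, 53.0 and 50.8 CPM in CUG960 mice. CUG960 libraries were all above the controls in atria and all below them in ventricles. The change was 0.24 ± 0.069 in atria (adjusted P = 0.055), which did not pass, and −0.36 ± 0.069 in ventricles (adjusted P = 0.014), which did not pass without V119, V123 or V327 (adjusted P = 0.057 to 0.074). The effects differed between the tissues by −0.60 ± 0.091 (adjusted P = 0.0080), which did not pass without V327 or V333 (adjusted P = 0.054 to 0.069). The entries Eno1b and Gm4735 match Eno1 transcripts at 99.5% and 99.6% of bases and held 39510 and 28043 counts, so the split of reads among these entries is uncertain. With near-identical copies added, Eno1 stood at 93.0, 93.4 and 93.1 CPM in control atria and at 118.5, 108 and 103 CPM in CUG960 atria. The sums in ventricles were 114, 112 and 102 CPM in controls and 84.2, 94.2 and 84.7 CPM in CUG960 mice, so the order of the groups was as for Eno1 alone. RefSeq lists several starts for Eno1. The window before the start nearest the annotated 5′ end of the gene held none of the motifs searched. The window with the most GC boxes is shown, with its 3 in capitals.
Eno1, chr4:150236974-150237223, plus strand: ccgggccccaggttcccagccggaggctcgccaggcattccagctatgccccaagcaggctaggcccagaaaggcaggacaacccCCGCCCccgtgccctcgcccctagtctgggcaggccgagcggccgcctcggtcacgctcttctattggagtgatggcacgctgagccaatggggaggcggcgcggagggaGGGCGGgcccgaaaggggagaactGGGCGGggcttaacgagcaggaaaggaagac

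Eno3, the muscle enolase, changed by 0.002 ± 0.094 in atria and 0.091 ± 0.095 in ventricles, with adjusted P values of 0.99 and 0.60, and made up most of the enolase signal per kilobase in every library. The share of Eno1 among Eno1, Eno2 and Eno3 was 2.33% ± 0.204 (SD, n = 3) in control and 2.73% ± 0.0944 in CUG960 atria, and 1.33% ± 0.106 in control and 0.973% ± 0.0103 in CUG960 ventricles, with no overlap in either tissue. Gapdh, Pgk1 and Pkm, which carry out the oxidation of glyceraldehyde 3-phosphate and the ATP-yielding steps, changed by −0.11, −0.041 and 0.051 in atria and by −0.15, −0.046 and 0.016 in ventricles. Gapdh has 77 near-identical entries that together held 41.9% as many counts as Gapdh itself, so its value carries the same uncertainty.

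**Figure D3:**
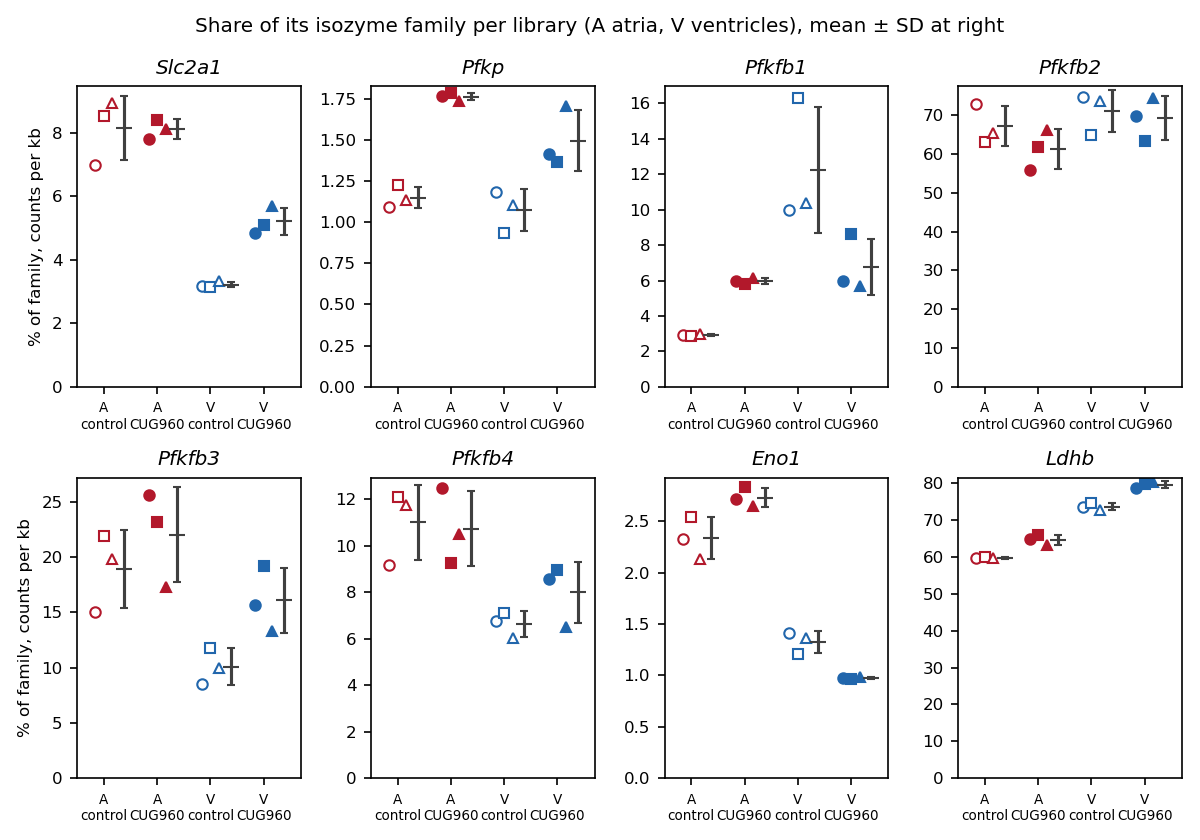
Share of each gene in its isozyme family, in percent of the CPM per kilobase summed over the family, for each library, with open symbols for control and filled symbols for CUG960 mice, a shape for each mouse. The share of Pfkfb1 is higher in CUG960 atria and lower in CUG960 ventricles, that of Ldhb is higher in CUG960 mice in both tissues, and that of Slc2a1 is higher in CUG960 ventricles.

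None of the 5 members at the branch between lactate and mitochondrial pyruvate oxidation passed the test in either tissue, where the count of those with an unadjusted P under 0.05 was 1 in atria and 1 in ventricles. Ldhb, the heart subunit of lactate dehydrogenase, was at 479, 453 and 464 CPM in control atria and 552, 558 and 508 CPM in CUG960 atria, groups that did not overlap, with a change of 0.21 ± 0.062 and an adjusted P of 0.057. Ldha, the muscle subunit, was at 955, 1015 and 924 CPM in control ventricles and 804, 820.1 and 723 CPM in CUG960 ventricles, with a change of −0.30 ± 0.085 and an adjusted P of 0.054. As a share of both subunits per kilobase, Ldhb was 59.7% ± 0.289 (SD, n = 3) in control and 64.6% ± 1.31 in CUG960 atria, and 73.6% ± 0.888 in control and 79.6% ± 0.900 in CUG960 ventricles, higher in each CUG960 library than in each control library of its tissue. The level of this share depends on the length used. Ldha has 3310 merged exon bases and 1815 in its longest transcript, and Ldhb has 1570 and 1304. Pdha1, the catalytic subunit of pyruvate dehydrogenase, and its inhibitory kinases Pdk1 and Pdk2 changed by 0.070, 0.21 and 0.032 in atria and by 0.015, 0.20 and 0.018 in ventricles.

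Of the 4 genes of glycogen synthesis, Gys1 passed in both tissues and Gyg in atria. Gys1, the muscle glycogen synthase, was at 87.2, 85.4 and 88.5 CPM in control atria and 71.1, 70.0 and 75.5 CPM in CUG960 atria, and at 121, 112 and 127 CPM in control ventricles and 87.0, 103 and 90.7 CPM in CUG960 ventricles. Each CUG960 library was below each control library of its tissue. Gys1 fell in atria (−0.27 ± 0.056, adjusted P = 0.017) and in ventricles (−0.36 ± 0.086, adjusted P = 0.031), under 1.5-fold in both. The atrial change did not pass without V119, V120, V333 or V334 (adjusted P = 0.055 to 0.071), nor the ventricular one without V119, V123, V327 or V334 (adjusted P = 0.083 to 0.11). Gyg, glycogenin, which primes the glycogen particle, rose by 0.26 ± 0.062 in atria (adjusted P = 0.030) and changed by 0.073 in ventricles (adjusted P = 0.56). Its atrial change did not pass without any 1 of the 6 mice (adjusted P = 0.055 to 0.12). Ugp2, which makes the UDP-glucose donor, and the branching enzyme Gbe1 stayed between −0.11 and 0.044 in both tissues, and neither passed.

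Phosphorylase kinase switches glycogen phosphorylase on, and Phkg1 encodes its muscle catalytic subunit (chr 5, 129863421 to 129898549, minus strand). Phkg1 was at 159, 128 and 134 CPM in control atria and 109, 113 and 105 CPM in CUG960 atria. In ventricles it was at 54.2, 55.1 and 46.6 CPM in controls and 28.8, 30.5 and 18.5 CPM in CUG960 mice, the lowest in V123. The groups were apart in both tissues. Phkg1 fell in ventricles (−1.003 ± 0.17, adjusted P = 0.0068), and with any 1 mouse left out the adjusted P there was between 0.0040 and 0.027. In atria the fall was smaller in size (−0.36 ± 0.086, adjusted P = 0.028) and did not pass without V119, V120 or V123 (adjusted P = 0.059 to 0.080). The effects differed by −0.64 ± 0.21 (adjusted P = 0.21), so a tissue difference was not shown. Phkg1 shares exonic bases with Sumf2 on the other strand, which changed by 0.31 in both tissues, with adjusted P values of 0.016 in atria and 0.087 in ventricles. The RefSeq window of Phkg1 held none of the 6 motifs searched.
Phkg1, chr5:129879089-129879338, minus strand: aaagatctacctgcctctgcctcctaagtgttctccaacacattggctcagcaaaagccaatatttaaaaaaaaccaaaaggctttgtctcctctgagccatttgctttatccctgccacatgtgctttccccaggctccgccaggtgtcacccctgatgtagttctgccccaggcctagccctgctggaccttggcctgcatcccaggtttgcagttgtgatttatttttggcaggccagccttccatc

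Phka1, the muscle regulatory subunit of the same kinase, fell in ventricles (−0.27 ± 0.073, adjusted P = 0.046), which did not pass without any 1 of the 6 mice (adjusted P = 0.058 to 0.18). In atria its change was −0.24 ± 0.067, which narrowly missed the threshold (adjusted P = 0.050). The phosphorylases themselves did not pass. Pygm, the muscle form, changed by 0.032 and −0.069 in atria and ventricles, Pygb, the brain form, by −0.12 and −0.082, and Pygl, the liver form, by 0.006 and −0.053.

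The same genes were compared between the chambers, where many more members were called than between the genotypes. In controls, 21 of the 36 members were called between atria and ventricles, 3 higher and 18 lower in atria. Of 17451 genes tested, 34.9% were called, 18.3% higher and 16.6% lower in atria. The median of the members was −0.60, beside 0.033 for all genes. In CUG960 mice 20 members were called, 3 higher and 17 lower in atria, against 33.6% of the 17559 genes tested, 17.2% higher and 16.4% lower, with medians of −0.52 and 0.0090. In all, 19 members were called in both genotypes, 17 of them lower in atria, a count given without the share of all genes called in both. Members close to 1.5-fold changed their call with a mouse left out: Gapdh fell short in controls without V333 (−0.55) and in CUG960 mice without V120 (−0.46) and Pfkfb2 in CUG960 mice without V119 (−0.50), while Pfkm in controls without V327 (−0.63) and Pgam2 in controls without V334 (−0.64) or in CUG960 mice without V119 (−0.65) reached it. With total counts and no composition scaling, an alternative chosen after seeing the data, 11 members were called in controls (5 higher, 6 lower) and 9 in CUG960 mice (4 higher, 5 lower), since that scaling moved the median of all genes to 0.49 in controls and 0.40 in CUG960 mice. The members' median in controls was then −0.15, and it lay 0.64 below that of all genes under either scaling.

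Per kilobase of merged exons, the members highest in control atria were Pgam2 at 566 ± 19.2 CPM per kilobase (SD, n = 3), Aldoa at 508 ± 34.0 and Eno3 at 424 ± 41.2. In control ventricles they were Aldoa at 935 ± 86.3, Eno3 at 911 ± 89.5, Pgam2 at 821 ± 112 and Ldhb at 814 ± 76.5. Neighbours in the atrial order were further apart than the larger of their SDs, and neighbours in the ventricular order were not. The atrial order depends on the length used. Aldoa has 2911 merged exon bases and 1549 in its longest transcript, and Pgam2 has 840 in both. Near-identical copies, left out here, raised Gapdh in the control atria V327, V333 and V334 from 1422, 1295 and 1414 CPM to 1984, 1885 and 2077 CPM. The atrial list thus also depends on leaving these copies out. By this measure, the muscle and heart forms of the pathway led in both chambers.

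Ugp2 was lower in atria, with log2 differences of −1.51 ± 0.10 in controls (adjusted P = 6.5e-06) and −1.40 ± 0.11 in CUG960 mice (adjusted P = 6.9e-06). Ldhb was lower by the same measure, at −1.46 (adjusted P = 3.4e-06) and −1.43 (adjusted P = 1.3e-06), with control means of 465 ± 13.0 CPM in atria and 1278 ± 120.1 CPM in ventricles (SD, n = 3). Hk2, Pdk1 and Eno3 were lower in atria, at −1.12, −1.14 and −1.11 in controls, and in CUG960 mice at −1.28, −1.13 and −1.20, all called. Slc2a4 was lower in atria, at −0.71 in controls and −0.67 in CUG960 mice, again called in both.

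The 2 members called higher in atria in both genotypes were Aldoc and Phkg1. Aldoc was higher by 2.15 ± 0.28 in controls (adjusted P = 2.6e-04) and 2.16 ± 0.18 in CUG960 mice (adjusted P = 1.2e-05). Phkg1 was higher by 1.43 ± 0.10 and 2.06 ± 0.16 (adjusted P = 9.6e-06 and 8.8e-06). Eno1 was lower in atria in controls, at −0.27 (adjusted P = 0.0047), and higher in atria in CUG960 mice, at 0.32 (adjusted P = 0.0060), neither at 1.5-fold. Neither difference passed in every fit that omitted a mouse, where the adjusted P of Eno1 reached 0.051 in controls and 0.066 in CUG960 mice. Pfkl and Slc2a1 were called in controls alone and Pgam1 in CUG960 mice alone, of which only Slc2a1 also passed the test of the difference.

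**Figure D4:**
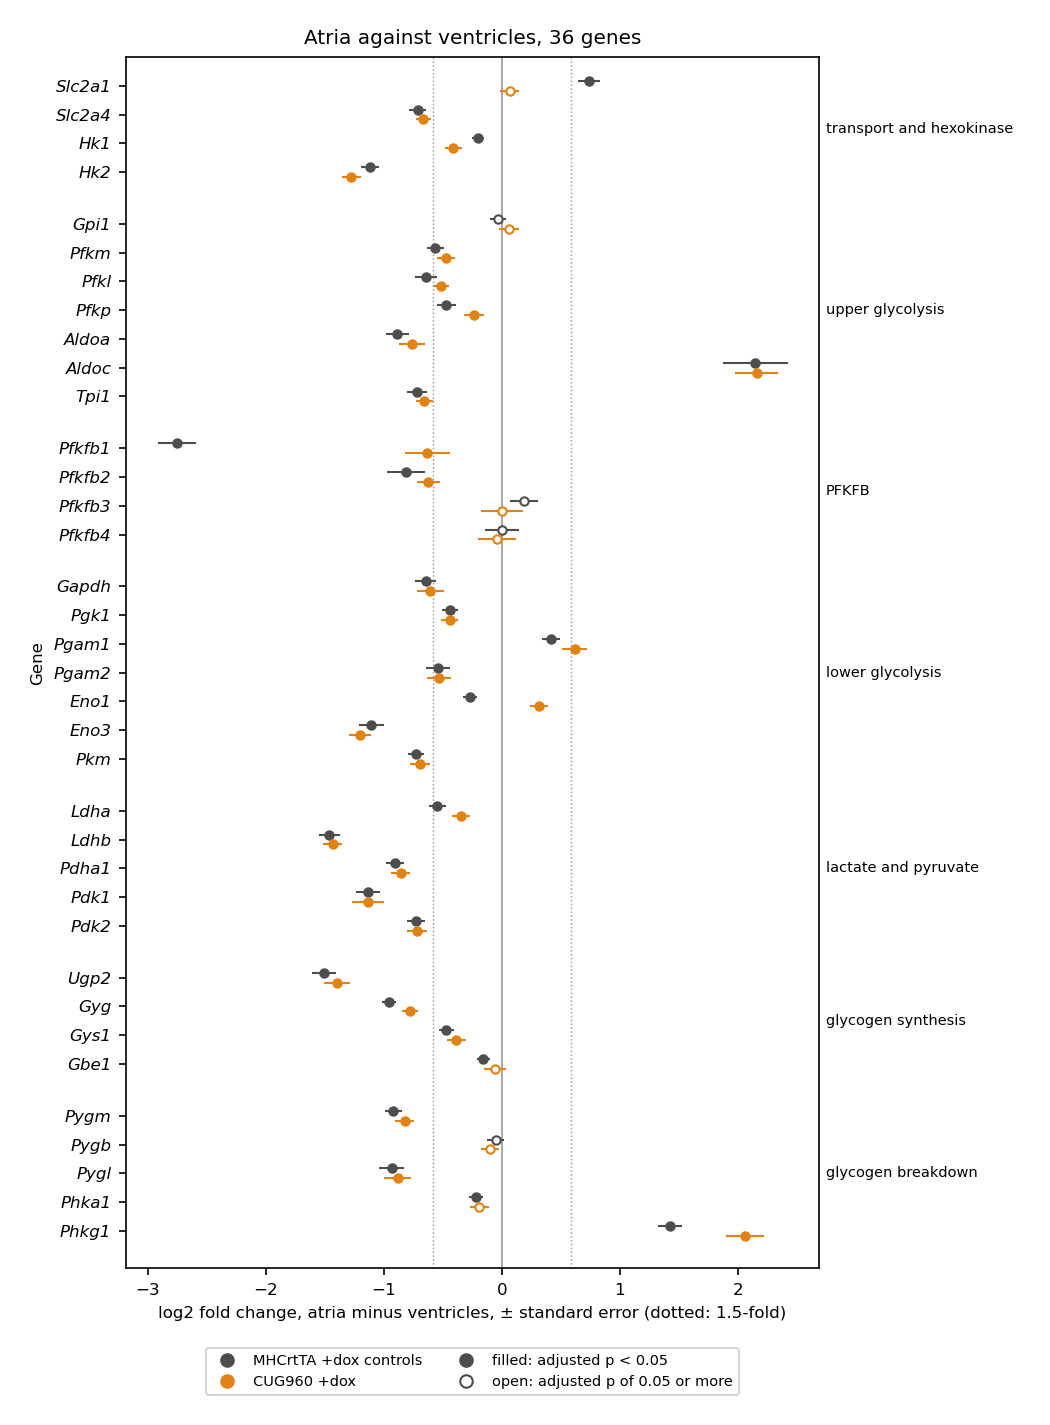
Log2 fold change of each of the 36 members, atria against ventricles, with standard errors, in controls (grey) and CUG960 mice (orange). Filled points passed an adjusted P value of 0.05 and dotted lines mark a 1.5-fold change. Most members lie to the left of 0, lower in atria, and Pfkfb1 in controls lies farthest left.

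Another 84 genes of glucose handling, listed beside the members, were examined in the same fits, and 79 of them passed the filter in each comparison. In atria 7 were called (5 higher, 2 lower), against 5.49% of all genes, and in ventricles 8 (5 higher, 3 lower), against 4.75%. The genotype effect differed between tissues for 3, against 1.38% of all genes. The medians of the 79 genes were −0.033 in atria and −0.058 in ventricles. Between the chambers 35 were called in controls (11 higher and 24 lower in atria), against 34.9% of all genes. In CUG960 mice 32 were called between the chambers (10 higher and 22 lower), against 33.6%.

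Fbp2, the muscle fructose bisphosphatase, which runs the phosphofructokinase step backwards, rose by 1.55 ± 0.30 in atria (adjusted P = 0.012), with a ventricular change of 0.48 (adjusted P = 0.16). Eno2, the neuronal enolase, fell in atria (−0.65 ± 0.086, adjusted P = 0.0028) and changed by 0.41 in ventricles (adjusted P = 0.14), a difference of 1.06 (adjusted P = 0.0089) that did not pass without V333 (adjusted P = 0.050).

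In the side branches, Sord, the enzyme that turns sorbitol into fructose, rose by 0.79 ± 0.080 in atria (adjusted P = 8.5e-04) and 0.63 ± 0.076 in ventricles (adjusted P = 0.0014). Gfpt1, the entry enzyme of the hexosamine pathway, fell in atria (−1.02 ± 0.059, adjusted P = 6.2e-05) and in ventricles (−0.54 ± 0.12, adjusted P = 0.020), the latter not passing without V120, V327 or V334 (adjusted P = 0.057 to 0.078). Its paralog Gfpt2 fell in ventricles (−0.68, adjusted P = 0.014) and did not pass without V120 (adjusted P = 0.057). Every CUG960 library was above the controls for Sord and below them for Gfpt1 in both tissues.

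Among genes of lactate transport and pyruvate oxidation, Slc16a7, a monocarboxylate transporter, rose by 0.83 ± 0.12 in atria (adjusted P = 0.0043) and 1.31 ± 0.19 in ventricles (adjusted P = 0.0038). Pdk3, a pyruvate dehydrogenase kinase, rose by 1.03 ± 0.15 in ventricles (adjusted P = 0.0031) and changed by 0.17 in atria (adjusted P = 0.16), a difference of 0.86 (adjusted P = 0.0075) that did not pass without V327 or V333 (adjusted P = 0.054). Pdk4, the fasting-induced kinase of the same family, was at 1000.02, 239 and 389.7 CPM in control and 86.6, 192 and 101 CPM in CUG960 ventricles, and at 667, 133 and 199.8 CPM in control and 115, 208 and 108 CPM in CUG960 atria. Control V327 stood far above the other mice in both tissues. Pdk4 fell in ventricles (−2.10 ± 0.49, adjusted P = 0.027) but did not pass without V119, V123 or V327 (adjusted P = 0.054 to 0.088), and its atrial change was −1.21 ± 0.55 (adjusted P = 0.18).

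Of the regulators, Akt1, a kinase of insulin signalling, rose by 0.67 ± 0.058 in atria (adjusted P = 4.3e-04) and 0.66 ± 0.067 in ventricles (adjusted P = 5.3e-04). Prkag2, the regulatory subunit of AMPK known for inherited cardiac glycogen storage, rose by 0.62 ± 0.099 (adjusted P = 0.0061) and 0.73 ± 0.074 (adjusted P = 5.2e-04). Mlxipl, which encodes the glucose-sensing factor ChREBP, fell in ventricles (−0.80 ± 0.089, adjusted P = 8.7e-04) and changed by −0.046 in atria, a difference of −0.75 (adjusted P = 0.012) that did not pass without V123, V327 or V333 (adjusted P = 0.058 to 0.079). None of the 20 tested genes of the wider glycogen list was called in either tissue, though Phkb, another regulatory subunit of phosphorylase kinase, fell in atria (−0.37, adjusted P = 0.0056) and in ventricles (−0.38, adjusted P = 0.015), where it did not pass without V119 or V120 (adjusted P = 0.053 to 0.054).

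**Figure D5:**
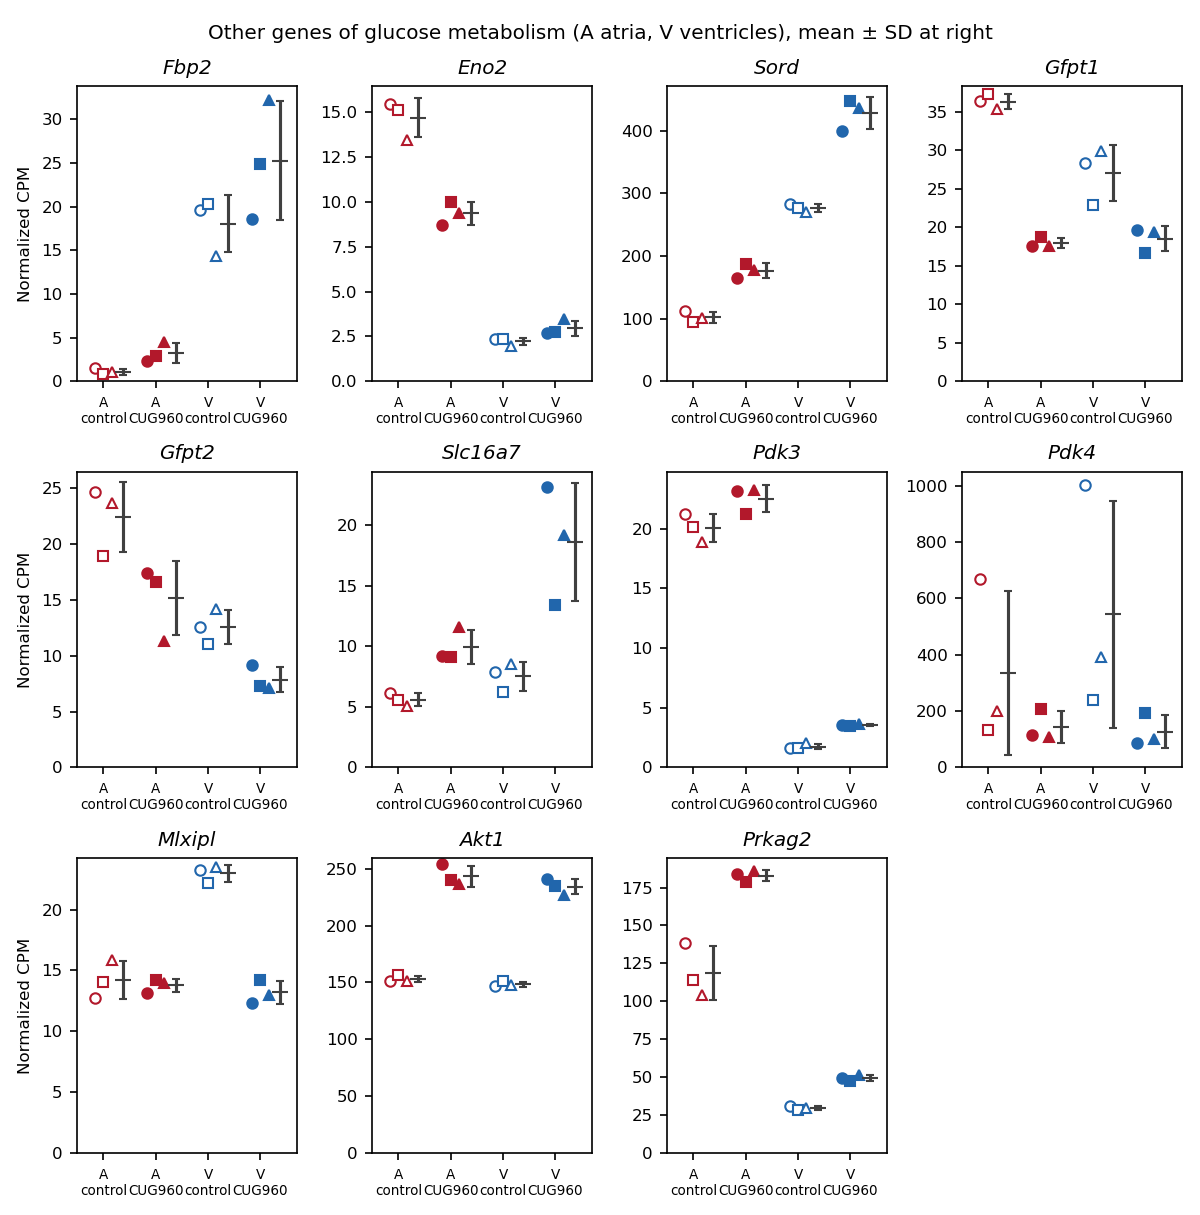
Level in CPM (TMM-scaled) of 11 further genes of glucose handling in each library, with open symbols for control and filled symbols for CUG960 mice, a shape for each mouse, and the mean ± SD (n = 3) beside them. Sord, Slc16a7, Akt1 and Prkag2 are higher in CUG960 mice in both tissues, and Pdk4 is set apart by the control V327.

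Promoter windows were matched for 35 of the 36 members, 55 windows of 250 bases, since several members have more than 1 RefSeq start. ACGTG was in 34.5% of these windows and in 16.6% of all 32851 mouse windows of that length. The E-box CACGTG, which holds ACGTG within it, was in 9.09% and 6.02%. GC boxes (GGGCGG) were in 45.5% and 32.7%, and the TATA box TATAAA was in 1.82% and 12.4%, the Pfkfb1 window printed above being the sole member window with it. The MEF2 core was in 3.64% and 3.20%, and the estrogen-related receptor element TCAAGGTCA in 0 of the 55 windows and 0.387% of all. Both strands were searched, and a match of letters is a description and not a binding site.

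Markers of other cell types differed between the genotypes beside these genes. The summed level of 6 endothelial markers (Pecam1, Cdh5, Kdr, Tie1, Emcn and Fabp4, of which Fabp4 was the most abundant and none was at 0) was 759, 729.9 and 628 CPM in control atria and 488, 568 and 501 CPM in CUG960 atria. In ventricles it was 1388, 1263 and 1211 CPM in controls and 869.9, 889 and 964 CPM in CUG960 mice. The CUG960 sums were below the control sums in both tissues, and the median log2 fold changes of the list were −0.41 and −0.43, with Pecam1 called in atria (−0.71, adjusted P = 0.0043) and Fabp4 in ventricles (−0.60, adjusted P = 0.014). In CUG960 mice these markers, Slc2a4, Gys1 and Pgam1 were lower in both tissues, and Slc2a1 was lower in atria and higher in ventricles. The part of endothelial cells in the changes of Slc2a4, Gys1, Pgam1 and Slc2a1, a transporter of endothelium too, was not tested. No fibroblast, leukocyte or erythroid marker was called by edgeR in either tissue (5, 0 and 5 of 6 each had an unadjusted P under 0.05 in atria and 2, 1 and 2 in ventricles). All 6 markers of each list were lower in CUG960 atria, with median log2 fold changes of −0.33, −0.15 and −1.76. Of these, 2 fibroblast markers had an adjusted P under 0.05. Of 6 smooth muscle markers, 1 was called in atria (Tagln, higher) and 3 in ventricles (lower), and 3 of 6 adipocyte markers, at low levels, were lower in ventricles. Of the neuron and Schwann cell markers, 1 of 4 tested was called lower in atria and 2 of 3 in ventricles. Their summed level was 12.6 ± 0.857 CPM (SD, n = 3) in control and 9.55 ± 1.19 CPM in CUG960 atria. In ventricles this sum was 10.4 ± 0.614 CPM in controls and 5.19 ± 0.849 CPM in CUG960 mice, and the genotypes did not overlap in either tissue. From the list of skeletal muscle genes, Tnnt3 and Ckm were lower in CUG960 atria, with log2 fold changes of −2.05 and −0.60. The fast myosins Myh4 and Myh1 of that list were too low to be tested. In ventricles no gene of that list was called. The summed level of the list there, most of all from Ckm, was 2584 ± 51.0 CPM (SD, n = 3) in controls and 2051 ± 332 CPM in CUG960 mice, without overlap. With the fast myosins too low to test, this sum is not a measure of skeletal muscle cells. The cardiomyocyte gene Myh6, whose promoter drives the transactivator, changed by 0.22 (adjusted P = 0.039) in atria and 0.25 (adjusted P = 0.13) in ventricles. It was the only 1 of 6 cardiomyocyte markers that was higher in CUG960 atria, the other 5 being lower (median −0.18). In ventricles 3 of these markers were higher and 3 lower (median −0.047), and 1 was called lower. Counts from mitochondrial genes took 10.9% to 12.2% of each atrial library, 19.6% to 20.5% of control and 15.3% to 18.4% of CUG960 ventricular libraries. Leaving the mitochondrial genes out left 2 members called in each tissue.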

How the data were processed

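Poly(A) RNA-Seq of atria and ventricles from 6 mice was analysed. The deposited table holds estimated counts per gene that the authors made with RSEM 1.3.1 on mm10 (GRCm38), with symbols as identifiers and all values whole, and the strand setting of the counting was not given in the sources used here. Of 51826 entries, 92 repeat a symbol and were kept as separate rows. The submitters' notes also name DESeq2. The 36 members, the gene lists and the tests were chosen with earlier results of these data known.

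Counts were filtered with filterByExpr, scaled by TMM and fitted with edgeR 4.0.16 (R 4.3.3) by quasi-likelihood, with P values adjusted over all genes tested by the Benjamini-Hochberg method. Calls required 1.5-fold or more at an adjusted P under 0.05 (the adjusted P alone for the interaction). Genotype was compared within each tissue without covariates, tissue within each genotype, and the interaction over all 12 libraries. Standard errors were taken from the fold change and the F statistic. Named genes were all members, genes of the wider list called in a genotype comparison or the interaction, the leading markers of each cell type list, and Dmpk, Mbnl1, Myh6 and Rpl4 as checks. Phkb and the remaining markers named were chosen after their values were seen. Levels are CPM, and per-kilobase levels used merged exon lengths from GENCODE on GRCm38. Entries with at least 95% identity over 200 bases were treated as near-identical copies. Sequences were read from RefSeq, GRCm38.p6.

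The mouse pairs atria with ventricles by the labels. Deviations of atria and ventricles of the same mouse correlated at 0.030 to 0.135 over 18327 genes, and those of different mice at −0.141 to 0.054. DESeq2 1.42.0, other scalings and filters, a replicate block and leaving out each mouse were alternatives. The procedure was tested on simulated data. Depths of 116127966 to 160676189 counts per library make counting error small beside the spread between mice for abundant genes. It may not be small for members of low count, such as Aldoc (26 counts in its lowest library) and Pfkfb1 (3705 counts over the 12 libraries).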

Additional observations from a re-analysis of the deposited data

Results flagged for a closer look

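Groups of 3 mice are too small for a test of single outlying samples, so the results listed here are those whose genotype effect differed between the tissues by the interaction test of edgeR (ventricular minus atrial log2 fold change, adjusted over 18327 genes). Among the members these were Pfkfb1 at −2.13 ± 0.25 (adjusted P = 0.0018), Eno1 at −0.60 ± 0.091 (adjusted P = 0.0080) and Slc2a1 at 0.67 ± 0.12 (adjusted P = 0.020). Pfkfb1 and Eno1 were higher in CUG960 atria and lower in CUG960 ventricles in all mice, and Slc2a1 the reverse. The atrial change of Eno1 did not pass on its own. Among the other genes of glucose handling these were the enolase Eno2 at 1.06 ± 0.17 (adjusted P = 0.0089), the kinase Pdk3 at 0.86 ± 0.13 (adjusted P = 0.0075) and the transcription factor gene Mlxipl at −0.75 ± 0.12 (adjusted P = 0.012). Of all the genes listed here, only Pfkfb1 passed this test in every fit that omitted a mouse.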

How the results depend on the processing

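The number of members called was 2 to 3 in atria, 2 to 3 in ventricles, 1 to 2 for the interaction, 20 to 22 between chambers in controls and 18 to 20 in CUG960 mice over the fits that omitted a mouse. The interaction kept a single member, Pfkfb1, without V333. Requiring 1.5 on the log2 scale, 0 members were called in atria, 0 in ventricles, 3 between chambers in controls and 2 in CUG960 mice, and with no limit on the fold change 8, 9 and 32 were called in atria, ventricles and between control chambers. Total counts with no composition scaling, chosen after seeing the data, gave 11 members between control chambers and 9 between CUG960 chambers. That scaling also moved the split of all called genes from 507 higher and 297 lower to 779 and 187 in ventricles, from 127 and 126 to 154 and 81 for the interaction, from 3194 and 2904 to 6918 and 1452 between control chambers, and from 3021 and 2879 to 6028 and 1539 between CUG960 chambers. Over all genes the interaction called 253 with edgeR, 660 with DESeq2 and 74 to 131 with a mouse left out. With the replicate block, atria and ventricles of a mouse being paired, 3 members were called for the interaction, 21 between control chambers and 20 between CUG960 chambers, so the block changed none of these counts.

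Aldoc in atria was called with DESeq2 (adjusted P = 0.0078), without a filter (0.032), with at least 10 counts in every library (0.047), with all 12 libraries fitted together (0.029), with total counts (0.038) and without V327 (0.011). In ventricles, Pfkp was called with total counts (adjusted P = 0.0081) and Pfkfb3 without V123 (adjusted P = 0.025). Between CUG960 chambers, Pfkfb1 was not called with total counts, without V119 (adjusted P = 0.075) or without V120 (adjusted P = 0.12). For the members, genotype changes that lost significance without a mouse are given beside their values above. Of 2556 values of single members under the alternatives, 2380 kept their direction and call, 39 lost the call, 14 gained it, 0 reversed a call and the rest changed sign with no call under either setting. Near-identical copies added to their member, also chosen after seeing the data, left 2 members called in atria, 2 in ventricles and 3 for the interaction. Between CUG960 chambers 19 were then called, as Gapdh fell short of 1.5-fold (−0.56). Gapdh also fell short there with upper quartile normalization (−0.57) and with at least 10 counts in every library (−0.58).

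Differences in isozyme share, CUG960 minus control in percentage points, depended in size on the gene length used. With the length of the longest transcript they were 2.92 for Pfkfb1, 0.783 for Pfkp and 0.890 for Eno1 in atria, and −0.823 for Eno1 and 7.20 for Ldhb in ventricles. As shares of counts they were 1.81 for Pfkfb1, 2.15 for Pfkp and 1.13 for Eno1 in atria, and 1.49 for Pfkp, −1.05 for Eno1 and 7.94 for Ldhb in ventricles. The other 69 of 80 values moved by less than the spread between mice. Among them, the ventricular difference for Pfkfb1, at −5.47 in the main fit, was −3.43 without V333 and −3.38 as a share of counts. Depth limits Aldoc most, which had as few as 26 counts in a library.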
